A study of Macaca fascicularis with 3 samples.

Results

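The 6 genes described here move or buffer calcium in muscle, and were followed across nuclei grouped by their leading myosin heavy chain in extraocular muscle (EOM) and quadriceps femoris muscle (QFM) of the cynomolgus macaque (Macaca fascicularis). They were picked by symbol: the pumps ATP2A1 and ATP2A2, the buffers PVALB and CASQ2, the kinase CAMK2A and the exchanger SLC8A1. All 6 were found among the 38550 features of the nuclei tables, 22005 of which carry a symbol. The data comprised 1 library of EOM nuclei, 1 of QFM nuclei and 1 of whole EOM cells, with no treatment or genotype named. EOM moves the eye, and QFM is the large extensor of the thigh.

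In a muscle fibre, calcium released from the sarcoplasmic reticulum starts contraction, and its return to the store ends it. The SERCA pumps return it: ATP2A1 encodes the form typical of fast fibres and ATP2A2 the form typical of slow fibres and heart. PVALB encodes parvalbumin, a soluble cytosolic buffer that speeds relaxation of fast fibres, and CASQ2 encodes calsequestrin 2, the calcium-binding protein inside the store of heart and slow fibres. CAMK2A encodes a subunit of the calcium- and calmodulin-dependent kinase II, and SLC8A1 the sodium-calcium exchanger of the surface membrane, best known from heart.

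Values are UMIs (unique molecular identifiers, 1 per captured molecule) summed over a group of nuclei and given as CPM, counts scaled to a common total of that group's UMIs. Each muscle was 1 library, so no difference has a replicate check, no test was made, and muscle cannot be told apart from library or animal. The 95% intervals given throughout reflect counting error alone. UMI counts are not scaled to gene length, so levels were compared for 1 gene between groups and not between genes. After filtering, 13975 EOM nuclei and 10525 QFM nuclei were kept, with medians of 2811 and 4508 UMIs, and the 2 libraries shared 33 barcodes. The title of the QFM library says nuclei while its file names say single cells, and in the latter case each comparison of the muscles would also compare nuclei with cells. The median mitochondrial share of UMIs in kept barcodes was 0.190% in the QFM library, 0.459% in EOM nuclei and 11.9% in EOM cells.

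Myofibre-like clusters, each with 11 to 14 detected markers of 17 listed, held 7833 EOM nuclei and 7420 QFM nuclei. Of these, 7160 and 7055 had at least 10 UMIs over the chains MYH3, MYH7, MYH13 and MYH15, and were assigned to the chain with most UMIs. Ties took out 225 and 5 nuclei. EOM then held 4325 MYH13-led, 1537 MYH15-led, 903 MYH3-led and 170 MYH7-led nuclei. QFM held 4341 MYH3-led and 2709 MYH7-led nuclei, and 0 of 7050 led by MYH13 or MYH15. MYH7 is the slow chain, and MYH13 and MYH15 are chains known from eye muscle. The usual limb fast chains MYH1 and MYH2 have no symbol in these tables, and the row named MYH3, otherwise the embryonic chain, stood at 9767 CPM in the QFM nuclei it led. Myosin genes are close copies of each other, as are ATP2A1 and ATP2A2, so reads could be split between them by the counting. The EOM groups were mixed: MYH13 was still at 4800 CPM in MYH3-led and 1260 CPM in MYH7-led EOM nuclei.

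Free RNA was measured in nuclei of other cell types, which should lack fibre-type genes. In pooled non-muscle nuclei, 20.2% of 4550 in EOM and 6.47% of 2707 in QFM had at least 10 UMIs of the 4 chains. The level of each gene in these nuclei is given below as its background. For ATP2A2, CASQ2 and SLC8A1 this level differed widely between cell classes, so it may not be free RNA alone. The EOM classes with at least 50 nuclei also differed in the other 3 genes. PVALB ran from 30.4 to 144 CPM, ATP2A1 from 76.0 to 247 CPM and CAMK2A from 0 to 30.9 CPM. Each was highest in the 58 mast cell-like nuclei. Satellite cells and a shallow neuron-like EOM cluster were left out of the pool.

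ATP2A1, the fast pump, followed the leading chain in both muscles. In QFM it was at 1006 CPM (interval 993 to 1019) in MYH3-led and 29.3 CPM (26.9 to 32.0) in MYH7-led nuclei. In EOM it was at 725 CPM (714 to 736) in MYH13-led, 476 CPM (453 to 499) in MYH3-led, 363 CPM (349 to 378) in MYH15-led and 133 CPM (107 to 163) in MYH7-led nuclei. No 2 neighbours in this EOM order had overlapping intervals. The background was 96.7 CPM in EOM and 84.6 CPM in QFM. MYH13-led EOM nuclei were thus 7.496-fold (7.06 to 7.96) and MYH7-led EOM nuclei 1.37-fold (1.10 to 1.70) over background, while QFM MYH7-led nuclei lay below it. Mast cell-like EOM nuclei held 247 CPM, more than the MYH7-led EOM nuclei. An ATP2A1 UMI was seen in 93.1% of QFM MYH3-led nuclei and in 80.9% of EOM MYH13-led nuclei, against 11.5% and 20.5% of the non-muscle nuclei of each muscle. Median depths were 4746 and 3956 UMIs in the muscle groups and 3321 and 2443 in the non-muscle nuclei. With each nucleus thinned to 1000 UMIs the 4 shares were 58.2%, 48.8%, 3.91% and 9.16%.

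ATP2A2, the slow pump, was highest in QFM MYH7-led nuclei, at 3463 CPM (3436 to 3491), where 99.9% of nuclei had a UMI. QFM MYH3-led nuclei stood at 149 CPM (144 to 154), below the QFM background of 203 CPM. Of the QFM classes with at least 50 nuclei, endothelial-like nuclei were lowest, at 129 CPM. The 4 EOM groups lay at 391 CPM (346 to 441) in MYH7-led, 216 CPM (205 to 227) in MYH15-led, 194 CPM (180 to 210) in MYH3-led and 115 CPM (111 to 120) in MYH13-led nuclei. The intervals of MYH15-led and MYH3-led nuclei overlapped, and the other neighbours were apart. The EOM background was 103 CPM, so MYH13-led nuclei were 1.12-fold (1.05 to 1.20) and MYH7-led nuclei 3.80-fold (3.32 to 4.33) above it. ATP2A2 is also a pump of other cells: mural-like nuclei, those of pericytes and vascular smooth muscle, held 309 CPM in both muscles, and macrophage-like QFM nuclei held 405 CPM.

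**Figure D1:**
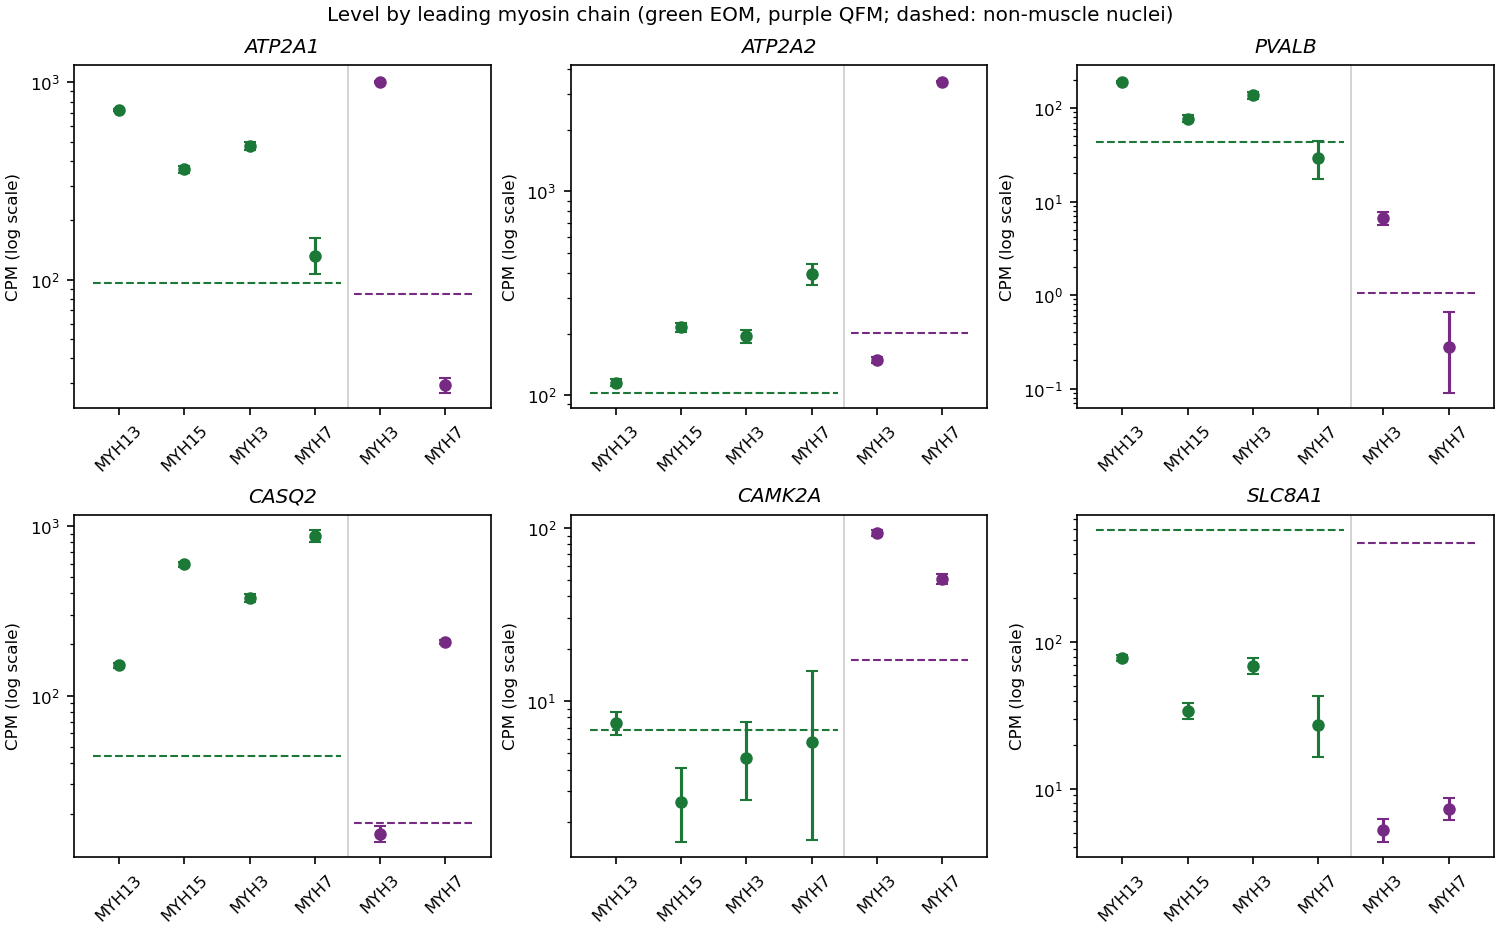
Level of each gene in CPM (log axis) in nuclei led by each myosin chain, EOM in green and QFM in purple, with 95% Poisson intervals; dashed lines are the pooled non-muscle nuclei of each library. ATP2A2 in QFM MYH7-led nuclei (3463 CPM) stands far above the 4 EOM groups (115 to 391 CPM), and SLC8A1 lies below the dashed line in all 6 groups.

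ATP2A1 and ATP2A2 ran in opposite directions along the MYH7 share in QFM. With MYH7 at under 10% of the chains' UMIs (4193 nuclei), ATP2A1 was at 1039 CPM and ATP2A2 at 79.3 CPM. In the 148 nuclei with MYH7 at 10 to 50%, ATP2A1 was at 494 CPM and ATP2A2 at 1225 CPM. At 50 to 90% (443 nuclei) they were at 51.1 and 3249 CPM, and at 90% or more (2271 nuclei) at 25.3 and 3503 CPM. The nuclei with 10 to 50% MYH7 therefore lay between the extremes for both genes, and had the greatest median depth of the 4 bins, 7004 UMIs against 4708 to 5956; called doublets had been removed, and the part of remaining doublets or free RNA was not tested. In EOM no bin of at least 90% MYH7 was filled. Across its 3 filled bins ATP2A1 stood at 648, 159 and 119 CPM and ATP2A2 at 136, 319 and 418 CPM, the last bin holding 59 nuclei.

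Pump UMIs within single nuclei showed the same contrast. ATP2A1 made up 87.1% (Clopper-Pearson interval 86.7 to 87.5) of the UMIs of both pumps in QFM MYH3-led nuclei and 0.840% (0.770 to 0.915) in QFM MYH7-led nuclei. Among 2697 QFM MYH7-led nuclei with at least 3 pump UMIs, 0 had more ATP2A1 than ATP2A2 UMIs. In EOM the share was 86.3% in MYH13-led, 71.0% in MYH3-led, 62.8% in MYH15-led and 25.3% (21.0 to 30.1) in MYH7-led nuclei. Nuclei with UMIs of both pumps were 67.5% (63.8 to 71.0) of MYH15-led EOM nuclei with at least 3 pump UMIs, against 31.5% (29.9 to 33.1) of QFM MYH3-led and 16.6% (15.2 to 18.0) of QFM MYH7-led nuclei. In pooled non-muscle nuclei with at least 3 pump UMIs this share was 56.0% (47.7 to 64.1) in EOM and 40.0% (33.7 to 46.6) in QFM. These were 150 of 4550 and 235 of 2707 nuclei. Pump UMIs per nucleus were not matched between groups, and the share depends on them, so it is not compared at like depth. MYH13-led (42.7%) and MYH3-led (45.9%) EOM nuclei lay below the value of these EOM non-muscle nuclei, and the interval of MYH7-led nuclei (49.3 to 75.6%) held it. QFM myofibre-like nuclei with under 10 chain UMIs (365 nuclei, median 3056 UMIs) held ATP2A2 at 2497 CPM and an ATP2A1 share of 9.28%.

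**Figure D2:**
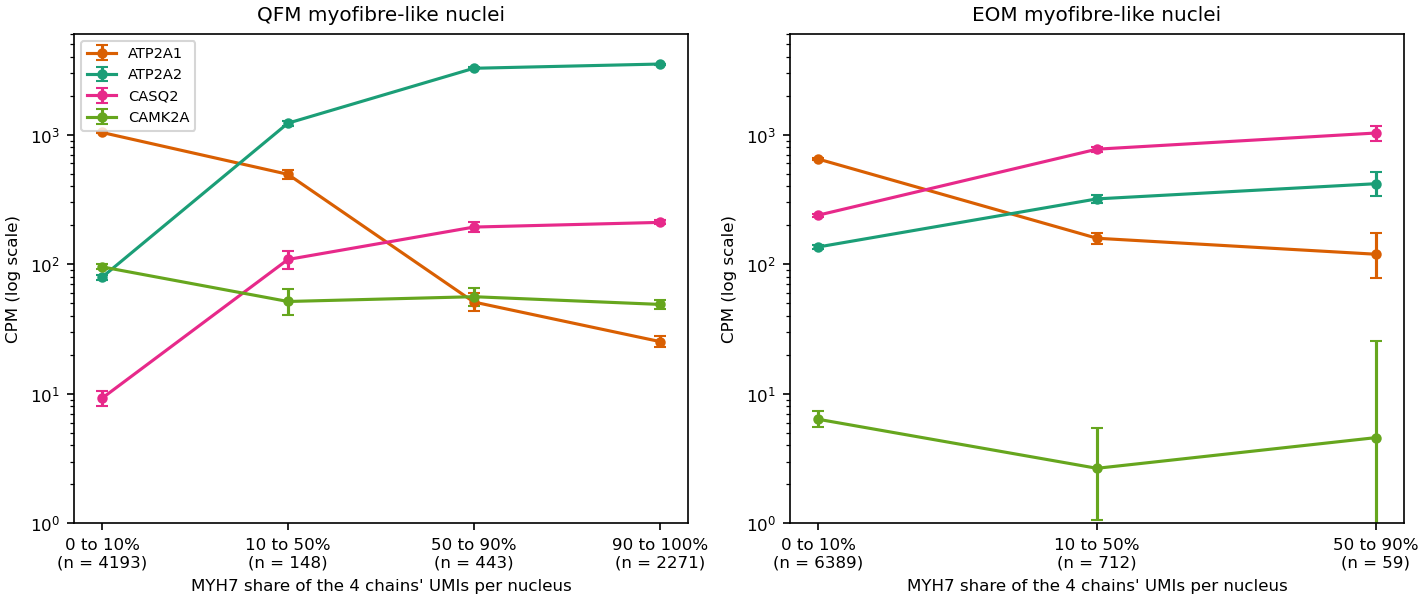
Level of 4 genes in CPM (log axis) in myofibre-like nuclei binned by the MYH7 share of the 4 chains' UMIs in each nucleus, QFM left and EOM right, with 95% Poisson intervals and the number of nuclei under each bin. In QFM ATP2A1 goes from 1039 to 25.3 CPM and ATP2A2 from 79.3 to 3503 CPM, while in EOM ATP2A2 goes from 136 to 418 CPM.

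PVALB, the parvalbumin gene, was above the pooled background in all EOM groups but the MYH7-led nuclei, and in QFM MYH3-led nuclei. EOM values were 189.5 CPM (184 to 195) in MYH13-led, 137 CPM (125 to 150) in MYH3-led, 77.1 CPM (70.7 to 83.9) in MYH15-led and 28.9 CPM (17.6 to 44.6) in MYH7-led nuclei. The EOM background was 43.0 CPM, and MYH7-led nuclei did not exceed it (0.671-fold, 0.406 to 1.05). Mast cell-like EOM nuclei held 144 CPM, within the interval of MYH3-led nuclei and above that of MYH15-led nuclei. QFM nuclei held 6.63 CPM (5.62 to 7.76) when MYH3-led and 0.2795 CPM (0.0907 to 0.652), 5 UMIs in all, when MYH7-led, against a background of 1.05 CPM. The fold over background was thus 4.41 (4.02 to 4.83) in MYH13-led EOM nuclei and 6.30 (3.42 to 12.9) in MYH3-led QFM nuclei, with overlapping intervals, although the levels differed widely between the muscles.

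CASQ2, the gene of the slow-fibre calsequestrin, was ordered the other way. In EOM it was at 873 CPM (805 to 946) in MYH7-led, 593 CPM (575 to 611) in MYH15-led, 375 CPM (355 to 396) in MYH3-led and 151 CPM (146 to 156) in MYH13-led nuclei, against a background of 44.1 CPM. QFM MYH7-led nuclei held 207 CPM (200 to 213), and QFM MYH3-led nuclei 15.3 CPM (13.7 to 16.9), within the interval of the background of 17.7 CPM (15.2 to 20.4). Among QFM classes with at least 50 nuclei, CASQ2 ran from 3.32 CPM in endothelial-like to 125 CPM in mural-like nuclei. MYH15-led EOM nuclei, led by a chain that QFM nuclei lacked as a leader, had more CASQ2 in CPM than the slow nuclei of QFM. The folds over the background of each muscle were 13.4 (12.3 to 14.7) and 11.7 (10.1 to 13.6) in this order, with overlapping intervals. The fold of MYH7-led EOM nuclei, 19.8 (17.6 to 22.3), lay above both. Mural-like nuclei held 124 CPM in EOM and 125 CPM in QFM, so CASQ2 was not limited to fibres. These nuclei are part of the pooled background, so the folds are not over free RNA alone. The lowest EOM class, endothelial-like nuclei, held 26.0 CPM. The 170 MYH7-led EOM nuclei were also divided by MYH15. CASQ2 was at 788 CPM (687 to 900) in the 70 with MYH15 at 10% or more of the chains and 930 CPM (840 to 1027) in the other 100, with overlapping intervals, as for the other 5 genes.

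CASQ2 also differed between clusters with the same leading chain; clusters were built without the 6 genes and without any myosin gene. Among QFM MYH7-led nuclei it was at 336 CPM in cluster 7, whose leading genes include ANKRD2 and BDNF, and 104 CPM in cluster 1, whose leading genes include TNNI1. ATP2A2 ran the other way there, at 3061 CPM in cluster 7 and 3872 CPM in cluster 1. QFM cluster 18, led by genes that include MUSK (the receptor kinase of the neuromuscular junction), NCAM1 and COL25A1, had the highest CASQ2 of the clusters with at least 50 MYH3-led nuclei. Its 89 MYH3-led nuclei held CASQ2 at 292 CPM (interval 250 to 340), against 3.03 to 3.16 CPM in clusters 3, 4 and 5, which held 1664, 924 and 1253 MYH3-led nuclei. The MYH3-led nuclei of cluster 2 (50 nuclei) and cluster 6 (343 nuclei) held CASQ2 at 67.4 and 15.1 CPM. In the pumps the MYH3-led nuclei of cluster 18 were not the farthest from those of clusters 3, 4 and 5. ATP2A2 was at 1296 CPM in cluster 2, 396 CPM in cluster 18 and 362 CPM in cluster 6, against 52.2 to 74.4 CPM. ATP2A1 was at 421, 458 and 833 CPM in the same order, against 984 to 1171 CPM. The 66 MYH7-led nuclei of cluster 18 held CASQ2 at 355 CPM (306 to 409), overlapping the interval of cluster 7 (323 to 350). Their ATP2A2, at 2093 CPM, was the lowest among QFM clusters with at least 50 MYH7-led nuclei. In EOM, MYH13-led nuclei of cluster 5 (leading genes include MYBPC2, the fast myosin-binding protein C) were at 37.7 CPM for CASQ2, 1012 CPM for ATP2A1 and 255 CPM for PVALB. MYH13-led nuclei of cluster 4 (leading genes include MYH15 and FAM240B) were at 663, 429 and 77.3 CPM. Nuclei with the same leading chain were thus far apart in CASQ2 between these 2 clusters.

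**Figure D3:**
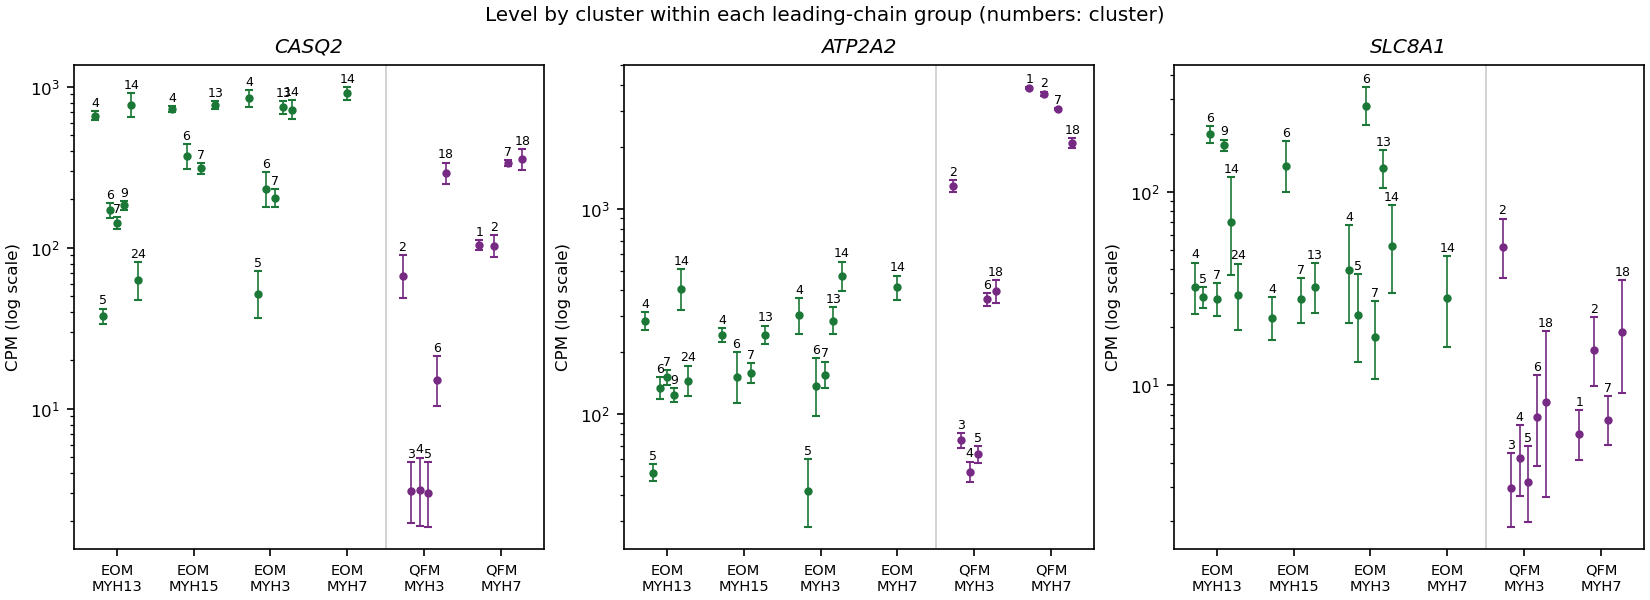
Level of CASQ2, ATP2A2 and SLC8A1 in CPM (log axis) in each cluster with at least 50 nuclei of a leading-chain group, EOM in green and QFM in purple, with 95% Poisson intervals and the cluster number above each point. QFM cluster 18 holds CASQ2 at 292 CPM among MYH3-led nuclei, and EOM clusters 6 and 9 hold SLC8A1 at 198 and 174 CPM among MYH13-led nuclei.

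CAMK2A was above background in QFM and not in EOM. It was at 92.7 CPM (88.9 to 96.7) in QFM MYH3-led and 50.2 CPM (47.0 to 53.6) in QFM MYH7-led nuclei, 5.42-fold (4.65 to 6.34) and 2.93-fold (2.49 to 3.46) over the QFM background of 17.1 CPM. The EOM groups lay at 7.405 CPM in MYH13-led, 5.77 CPM in MYH7-led, 4.64 CPM in MYH3-led and 2.58 CPM in MYH15-led nuclei, against a background of 6.75 CPM. The first 3 had overlapping intervals, and MYH15-led nuclei (1.53 to 4.08 CPM) lay below the background. CAMK2A is a gene best known from neurons, and the neuron-like EOM cluster (767 nuclei, median 877 UMIs) held it at 62.6 CPM. Whether its counting differed between the libraries was not tested. Among QFM clusters CAMK2A ranged from 46.0 to 104 CPM, with no cluster near the levels of the EOM leading-chain groups.

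SLC8A1, the exchanger, was a gene of other cell types in both muscles. It was at 2343 CPM in macrophage-like and 1536 CPM in mural-like EOM nuclei, and at 1131 and 1766 CPM in those of QFM. The levels in fibre nuclei were 77.99 CPM (74.4 to 81.7) in MYH13-led, 69.4 CPM (60.8 to 78.7) in MYH3-led, 34.2 CPM (29.97 to 38.8) in MYH15-led and 27.4 CPM (16.5 to 42.8) in MYH7-led EOM nuclei. QFM nuclei held 5.22 CPM (4.33 to 6.23) when MYH3-led and 7.27 CPM (6.07 to 8.63) when MYH7-led. The lowest other class was Schwann-like nuclei in EOM, at 40.6 CPM (22.7 to 67.0), and satellite cell-like nuclei in QFM, at 11.9 CPM (6.32 to 20.3). No leading-chain group of QFM exceeded the lowest class, and in EOM the intervals of MYH3-led, MYH15-led and MYH7-led nuclei overlapped it.

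The EOM values of SLC8A1 were highest in clusters 6 and 9. MYH13-led nuclei were at 198 CPM in cluster 6 and 174 CPM in cluster 9, at 69.5 CPM in the 64 nuclei of cluster 14, and at no more than 32.2 CPM in clusters 4, 5, 7 and 24. Among MYH3-led nuclei SLC8A1 was at 278 CPM in cluster 6 and 133 CPM in cluster 13, which is not led by mitochondrial genes and whose second-best list, fibroblast, scored -0.593. The 359 MYH15-led nuclei of cluster 13 held SLC8A1 at 32.1 CPM (23.6 to 42.8). Clusters 6 and 9 have mitochondrially encoded genes among their leading genes, and median depths of 1276 and 11494 UMIs; their myofibre scores were 0.736 and 0.868, and their endothelial scores 0.674 and 0.601, while the endothelial list was the second-best and below 0 in clusters 4, 5, 7, 14 and 24. With called doublets kept, a cluster of 310 EOM nuclei led by mitochondrial genes was named endothelial, its endothelial and myofibre scores being 0.772 and 0.677. The macrophage, fibroblast and endothelial marker lists were higher in all EOM groups than in the QFM groups, and the mural list was not. The summed macrophage list (8 of 9 markers with a symbol) was at 33.2 to 66.7 CPM in the EOM groups and 9.45 to 11.97 CPM in the QFM groups. The fibroblast list (10 of 10) was at 248 to 485 against 111 to 138 CPM, the endothelial list (10 of 10) at 243 to 563 against 70.4 to 94.4 CPM, and the mural list (7 of 9) at 324 to 626 against 516 to 731 CPM. CD163, CD86, CD14 and C1QA were at 0 in MYH7-led EOM nuclei, PRG4 was at 0 in MYH3-led and CNN1 in MYH7-led EOM nuclei, and all other markers with a symbol were detected in each group. Their part in the SLC8A1 level was not tested.

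The muscles were then compared at the same leading chain, as the log2 ratio of EOM over QFM. In MYH7-led nuclei, 4 of 6 genes were at least 2-fold higher in EOM, where 29.3% of 13720 genes were, and 2 of 6 at least 2-fold lower, where 10.3% were. PVALB stood at 6.69 (interval 5.23 to 8.46), ATP2A1 at 2.18 (1.84 to 2.50), CASQ2 at 2.08 (1.95 to 2.20) and SLC8A1 at 1.92 (1.14 to 2.62), the last at 0.95 with nuclei thinned to 1000 UMIs. ATP2A2 stood at -3.15 (-3.32 to -2.97) and CAMK2A at -3.12 (-5.00 to -1.76). These ratios rested on EOM levels at or near background for ATP2A1, PVALB and CAMK2A, the last at 0.856-fold from 4 UMIs. For SLC8A1 the EOM level was far below background, at 0.0468-fold.

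In MYH3-led nuclei, 3 of 6 genes were at least 2-fold higher in EOM (27.7% of 15594 genes) and 2 at least 2-fold lower (11.9%). CASQ2 stood at 4.62 (4.45 to 4.79), PVALB at 4.37 (4.11 to 4.64) and SLC8A1 at 3.73 (3.41 to 4.06). CAMK2A was at -4.32 (-5.13 to -3.62) and ATP2A1 at -1.08 (-1.15 to -1.01), while ATP2A2 was within 2-fold at 0.39 (0.27 to 0.51). The EOM MYH3-led nuclei were not alike: ATP2A1 was at 923 CPM (852 to 997) in cluster 5 and 141 CPM in cluster 14. CASQ2 was at 52.1 and 722 CPM in the same clusters, and ATP2A2 at 41.9 and 469 CPM. These ratios therefore do not compare like nuclei of the 2 muscles. The ATP2A2 ratio depended on the nuclei kept: it was at 1.16, past 2-fold, without clusters led by mitochondrial genes, and at -1.11, the reverse direction, with called doublets kept. ATP2A1 was at -0.90, within 2-fold, with doublets kept. In that alternative the clusters and their names were also made anew, and 6143 EOM and 7774 QFM nuclei were grouped by chain rather than 6935 and 7050, so these moves cannot be put down to the doublets alone. In the pooled non-muscle nuclei PVALB stood at 5.35 (4.50 to 6.37), CASQ2 at 1.32, SLC8A1 at 0.28 (0.23 to 0.34) and CAMK2A at -1.34, each with the sign of both its fibre ratios. ATP2A2 stood at -0.98 there, the sign of its MYH7-led ratio but not of its MYH3-led ratio, and ATP2A1 at 0.19, likewise the sign of the MYH7-led ratio alone.

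**Figure D4:**
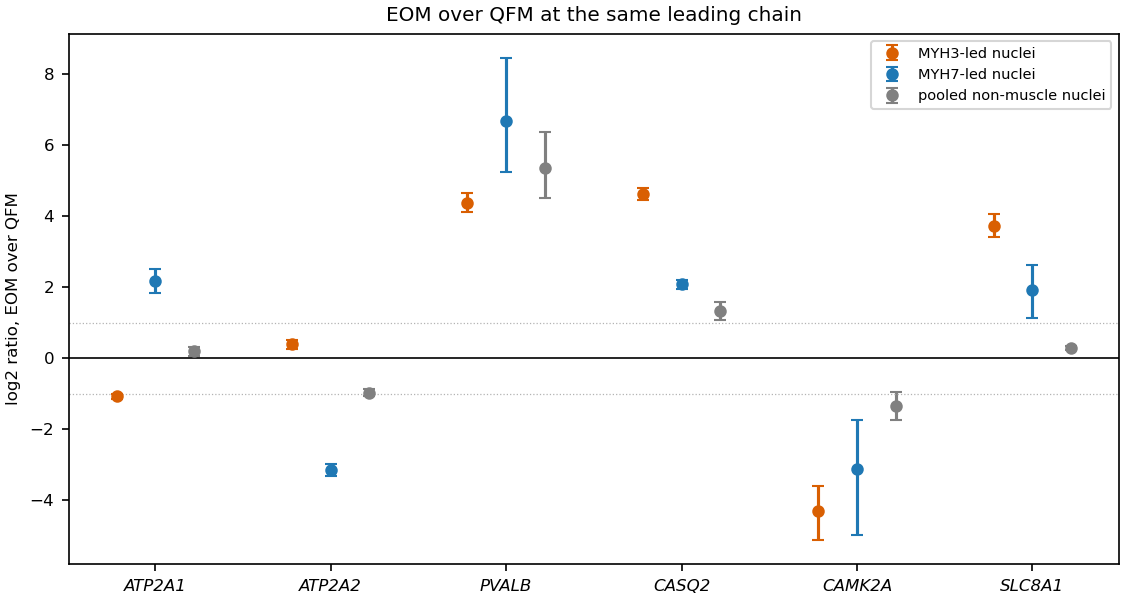
log2 ratio of EOM over QFM for each gene in MYH3-led, MYH7-led and pooled non-muscle nuclei, with 95% conditional binomial intervals; dotted lines mark 2-fold. PVALB, CASQ2 and SLC8A1 lie above 0 in both fibre groups and CAMK2A below it, while ATP2A1 is at 2.18 in MYH7-led and -1.08 in MYH3-led nuclei.

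Over all grouped nuclei, whose makeup by chain differed between the muscles, 3 genes were at least 2-fold higher in EOM (32.9% of 19134 genes) and 2 at least 2-fold lower (9.17%). ATP2A1 was within 2-fold, at 0.07 (0.04 to 0.10). Of the EOM nuclei here, 62.4% were MYH13-led and 22.2% MYH15-led, and no QFM nucleus was led by either chain. The near-equality is thus not a comparison at like leading chains. The median over all genes was 0.40 here, 0.36 in MYH7-led and 0.26 in MYH3-led nuclei.

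Within QFM, MYH3-led against MYH7-led nuclei had 2 of 6 genes at least 2-fold higher (10.6% of 15984 genes) and 2 lower (6.28%). ATP2A1 differed by a log2 ratio of 5.10 (4.97 to 5.23) and PVALB by 4.57 (3.31 to 6.21), and ATP2A2 by -4.54 (-4.59 to -4.49) and CASQ2 by -3.76 (-3.92 to -3.60). CAMK2A at 0.89 and SLC8A1 at -0.48 were within 2-fold. Within EOM, MYH13-led against MYH7-led nuclei had 3 genes higher (10.6% of 16515) and 2 lower (16.9%), with ATP2A1 at 2.45 (2.15 to 2.76), PVALB at 2.71 (2.09 to 3.43), SLC8A1 at 1.51, ATP2A2 at -1.76 (-1.94 to -1.58) and CASQ2 at -2.53 (-2.66 to -2.40). MYH13-led against MYH15-led nuclei had 3 higher (7.89% of 17197) and 1 lower (3.15%), with PVALB at 1.30, CAMK2A at 1.52, SLC8A1 at 1.19 and CASQ2 at -1.97 (-2.04 to -1.91). The CAMK2A ratio rested on 167 and 18 UMIs. Its levels were 1.10-fold (0.838 to 1.45) and 0.383-fold (0.216 to 0.644) of the EOM background, so neither group exceeded it. ATP2A1 at 0.9968 lay just inside 2-fold (0.84 to 1.20 over the alternatives), and ATP2A2 was at -0.90. Without clusters led by mitochondrial genes, SLC8A1 was at 0.18 (-0.50 to 0.95) and 0.17 (-0.09 to 0.43) in these EOM comparisons. The pump and CASQ2 ratios between fast-led and slow-led nuclei were thus smaller in EOM, whose groups were mixed in chain content; the difference between the muscles was not tested.

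Other calcium-handling genes were read from a list of 71, of which 58 have a symbol. No background in non-muscle nuclei is given for these genes. The part of free RNA or of other cell types in their levels and ratios was not tested. In MYH3-led nuclei, 15 of 56 measured were at least 2-fold higher in EOM (27.7% of all genes) and 18 lower (11.9%). In MYH7-led nuclei 11 of 54 were higher (29.3% of all genes) and 14 lower (10.3%). The list's median log2 ratios were -0.38 and -0.12, against 0.26 and 0.36 over all genes. Of its store and buffer genes, 0 of 6 were higher and 4 lower in MYH3-led nuclei, beside the same 27.7% and 11.9% of all genes. TNNC2, the fast troponin C, was at 298 CPM in EOM against 2472 CPM in QFM MYH3-led nuclei, and S100A1, a calcium-binding protein, at 11.03 and 76.7 CPM. TNNC1, the slow troponin C, was at 202 CPM in EOM against 975 CPM in QFM MYH7-led nuclei.

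The other pumps and the release genes varied within the list. Of 6 measured pump, regulator and exchanger genes in MYH3-led nuclei, 2 were higher and 2 lower, and of 18 release and triad genes 4 were higher and 7 lower, where 27.7% and 11.9% of all genes were. The plasma membrane pump ATP2B2 was at 64.4 CPM in EOM against 422 CPM in QFM, and its relative ATP2B4 at 116 and 32.2 CPM. The ryanodine receptor RYR3 was at 168 CPM in EOM against 20.2 CPM in QFM MYH3-led nuclei, whereas in MYH7-led nuclei it was at 382 and 414 CPM.

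Entry and mitochondrial genes included some of the widest ratios. TRPC1, a cation channel linked to store-operated entry, was at 101 CPM in EOM against 5.22 CPM in QFM MYH3-led nuclei, and at 79.4 and 5.25 CPM in MYH7-led nuclei. MCU, the pore of the mitochondrial uniporter, was at 492 CPM in EOM against 1364 CPM in QFM MYH7-led nuclei. MCUB, its inhibitory relative, was at 222 CPM in EOM against 5.198 CPM in QFM MYH7-led nuclei, a log2 ratio of 5.42 (5.04 to 5.80). In signalling, 3 of 12 genes were higher (27.7% of all genes) and 4 lower (11.9%) in MYH3-led nuclei. The calcineurin subunit PPP3CA was at 335 CPM in EOM against 1938 CPM in QFM, and the kinase CAMK4 at 22.9 and 2.44 CPM.

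Within QFM, 11 of 55 measured genes of the list were at least 2-fold higher (10.6% of all genes) and 7 lower (6.28%) in MYH3-led than in MYH7-led nuclei. TNNC2 was at 2472 against 206 CPM, ATP2B2 at 422 against 45.1 CPM and PPP3R1, the regulatory subunit of calcineurin, at 472 against 54.5 CPM. On the slow side, RYR3 was at 20.2 against 414 CPM and MCU at 272 against 1364 CPM. In EOM, MYH13-led against MYH7-led nuclei had 9 of 56 higher (10.6% of all genes) and 10 lower (16.9%). MYH13-led against MYH15-led nuclei had 3 of 57 higher (7.89%) and 3 lower (3.15%). Over all grouped nuclei, EOM had 13 of 58 higher (32.9% of all genes) and 17 lower (9.17%) than QFM. ATP2B2 was at 131 CPM in MYH13-led and 17.1 CPM in MYH15-led EOM nuclei, and RYR3 at 68.6 and 247 CPM.

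The genes most like each member in pattern were read over 20 points, the leading-chain groups and cell classes with at least 50 nuclei in the 2 nuclei libraries, among 7501 genes. The points share their library, free RNA and depth, so Pearson's r of log2(CPM + 5) is a description only. The rows MYH3, MYH7, MYH13 and MYH15 also defined the leading-chain groups, so their pattern over the points is in part set by the grouping. ATP2A1 was most like MYH3 (0.98), the myosin light chain MYL1 (0.97) and the fast troponin TNNT3 (0.90). ATP2A2 was most like KCNK2 (0.85), BDNF (0.85) and MYH7 (0.82). PVALB was most like MYH4 (0.99), MYH13 (0.97) and INHA (0.97), and CASQ2 like AKAP6 (0.93), COLQ (0.91) and STK33 (0.90). CAMK2A was most like FOS (0.87), PSMD1 (0.85) and TOB1 (0.85), and SLC8A1 like EPS8 (0.91), FER (0.88) and NR1H3 (0.88).

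In the whole-cell EOM library 33 of 7111 kept cells were myofibre-like. They held 24 UMIs of ATP2A1, 463 CPM (297 to 689), 7 of CASQ2, 135 CPM (54.3 to 278), and 2 each of ATP2A2 and PVALB, with 0 of CAMK2A and SLC8A1, each of which allows up to 71.2 CPM. Mural-like cells (1861 cells) held CASQ2 at 106 CPM (94.3 to 118), near the 124 and 125 CPM of the nuclei libraries, and fibroblast-like and endothelial-like cells held 8.89 and 0.852 CPM. SLC8A1 was highest in mural-like cells, at 70.01 CPM (60.7 to 80.4), then in endothelial-like cells at 52.8 CPM (40.5 to 67.7) and macrophage-like cells at 37.7 CPM (28.1 to 49.6). The mural-like and macrophage-like levels were far below those of the nuclei libraries, which came from other preparations and a differently annotated table. ATP2A2 was at 118 CPM in mural-like cells, and ATP2A1 and PVALB were at most 11.1 and 4.79 CPM in the named non-muscle classes.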

How the data were processed

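The authors deposited raw UMI counts per gene and barcode for 3 libraries, 1 per group (61618999 UMIs in EOM nuclei, 72590186 in QFM nuclei, 12248405 in EOM cells). Cell Ranger 7.2.0 and Seurat 5.2.1 were used, per the submitters' processing notes. The sources used here do not give the genome build, annotation, treatment of intronic reads or number of animals. The other deposited columns (barcode and feature names) were used as names only.

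Barcodes with at least 200 genes, 500 UMIs and at most 10% (nuclei) or 20% (cells) mitochondrial UMIs were kept. Scrublet at an expected 6% called 2498, 1866 and 188 doublets in EOM nuclei, QFM nuclei and EOM cells, which were removed. Each library was clustered by itself (scanpy 1.11.5, 2000 variable genes, 30 components, 15 neighbours, Leiden resolution 1, seed 1) without the 6 genes, the calcium list or any myosin heavy chain. A cluster was named from 16 marker lists with a score of at least 0.3 and 3 markers seen in at least 10% of its barcodes; both limits were set after the clusters were seen.

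Ratios of summed CPM have conditional exact binomial intervals, levels Poisson intervals and shares Clopper-Pearson intervals, all at 95%. A gene needed 20 counts over both sums, and a count of 0 was taken as 3. The interval was tested on simulated data. The members and lists were chosen with earlier results of these data known. From the list, up to 2 genes of each role with the largest ratio past 2-fold and at least 20 CPM in a comparison could be named, and 3 genes of most similar pattern per member. The values of a gene so chosen are also given for another comparison where it is described. No sequences were printed, and 13 alternatives were run.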

Additional observations from a re-analysis of the deposited data

Results flagged for a closer look

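The EOM over QFM ratio of both pumps had opposite signs at the 2 leading chains that the muscles share. ATP2A1 was higher in EOM among MYH7-led nuclei (log2 ratio 2.18) and lower among MYH3-led nuclei (-1.08). The EOM MYH3-led nuclei were mixed, with ATP2A1 at 923 CPM in cluster 5 and 141 CPM in cluster 14. ATP2A2 was lower in EOM among MYH7-led nuclei (-3.15) and higher among MYH3-led nuclei (0.39). The latter was within 2-fold, near the median of 0.26 over all genes in that comparison, and lay between -1.11 and 1.16 over the alternatives. With 1 library per group these differences between leading chains were not tested. Beside them, ATP2A1 in EOM MYH7-led nuclei was at 1.37-fold of the EOM background, and ATP2A2 in QFM MYH3-led nuclei at 0.733-fold of the QFM background.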

How the results depend on the processing

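With 1 library per group, leaving out a replicate was not possible. No paired analysis was possible because each group has 1 library and no result comes from a test. Of the 13 alternatives, 2 were chosen after seeing the data: nuclei with no UMI of the fibroblast, endothelial and macrophage markers, and leaving out clusters led by mitochondrial genes. An alternative gave no value for a side under 20 nuclei or a gene under 20 counts, so a leading chain at 70% or more gave none for MYH7-led EOM nuclei (5 nuclei). ATP2A1, ATP2A2, PVALB, CASQ2 and CAMK2A kept their side of 2-fold in MYH7-led nuclei, EOM over QFM, under every alternative that gave a value. ATP2A1 over all grouped nuclei turned to -0.0313 with at least 20 chain UMIs, -0.0385 over nuclei of every class, -0.0905 when thinned to 1000 UMIs and -0.199 with median ratio scaling. ATP2A2 in MYH3-led nuclei, EOM over QFM, turned to -1.11 with doublets kept, where clusters and class names were redone too. SLC8A1 in QFM MYH3-led over MYH7-led nuclei turned to 0.68 over nuclei of every class and was at -2.001 when thinned. CAMK2A in EOM MYH13-led over MYH7-led nuclei went from 0.36 to -1.45 when thinned, both with intervals that held 0. CASQ2 over all grouped nuclei was at 0.46 with the leading chain at 70% or more and at 1.24 to 1.88 otherwise. ATP2A1 in MYH3-led nuclei, EOM over QFM, was within 2-fold under 3 alternatives (-0.97 to -0.90). The causes were not tested.

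Counts past 2-fold moved as follows. In MYH7-led nuclei, EOM over QFM, 2 members were higher when thinned (PVALB had too few counts and SLC8A1 was at 0.95), and 7 genes of the calcium list were higher with median ratio scaling. In MYH3-led nuclei, EOM over QFM, with the leading chain at 70% or more, 1 member was lower and 9 list genes higher, and 1 member was lower in marker-free nuclei. For EOM MYH13-led over MYH7-led nuclei, 3 list genes were higher when thinned, and 5 were higher and 6 lower in marker-free nuclei. For EOM MYH13-led over MYH15-led nuclei, 2 members were lower with the leading chain at 70% or more and when thinned. There the list had 6 higher and 5 lower at 70% or more, 8 higher over nuclei of every class, 6 lower in marker-free nuclei and 6 lower without mitochondria-led clusters. Of the counts under alternatives, 289 stayed within 1.5 times of the value reported and 15 did not. Of the members' own ratios, 330 stayed within the interval of the value reported, 115 moved beyond it, and 6 changed sign where that interval had excluded 0. ATP2A2 in QFM MYH3-led over MYH7-led nuclei ranged from -5.27 to -2.97, and SLC8A1 in MYH3-led nuclei, EOM over QFM, from 2.69 to 5.46. Depth limits CAMK2A (4 UMIs) and SLC8A1 (19 UMIs) in MYH7-led EOM nuclei and PVALB (5 UMIs) in QFM MYH7-led nuclei.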
